A study of Mus musculus with 24 samples.

Results

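Transcriptomes of mouse pancreatic tumours from the IGEL group were compared with those from the GEM group by bulk RNA sequencing, across all expressed genes. The comparison took 12 of the 24 libraries of the series, 6 labelled IGEL and 6 labelled GEM. These libraries were picked by group label alone and not by any measured value. The comparison itself and the gene lists were chosen with earlier results of these data known. All were collected on day 24. PBS, GEM, IGEL and LIGEL are group names that the labels do not expand, so no group is given a drug, dose or carrier. The labels used state no strain, age, sex, tumour model or dosing. The series title speaks of losartan priming before a nanocarrier for chemotherapy and immunotherapy, and IGEL against GEM asks how tumours of these treatment groups differed. Nothing in the labels ties the libraries to separate animals, and the p-values therefore reflect only how far these samples spread, part of which may be technical.

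Pancreatic ductal tumours consist of epithelium embedded in a dense stroma of fibroblasts and matrix, and they usually hold few cytotoxic T cells. T cells that meet antigen switch on chains of the interleukin-2 receptor and killing proteins such as granzymes, and they later display inhibitory receptors (checkpoints) that restrain them. Interferon gamma, made by activated T and natural killer cells, raises antigen presentation and chemokines in the cells around them.

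Library totals were 31.64 to 35.6 M counts in GEM and 33.75 to 38.77 M in IGEL (M, 1000000 counts). The sample titles name muscle while the tissue label says pancreatic tumour. Muscle genes took 0.001756 to 0.003008% of counts in 11 libraries and 0.04251% in IGEL replicate 4, where Ttn, the gene of a giant muscle protein, stood at 141.2 CPM (counts per 1000000 of the TMM-scaled total). Genes of acinar cells, which make digestive enzymes, took 0.007026 to 19.52% of counts in GEM and 0.007022 to 11.28% in IGEL. On the first principal component (57.4% of variance), IGEL replicates 1 and 6 and GEM replicate 1 lay at the low end and GEM replicates 6 and 4 and IGEL replicate 4 at the high end. The count columns of GEM replicates 1 to 3 and IGEL replicate 1 are named A1 or A2 with a suffix, those of the other 8 libraries A11 to A24. The labels do not say what these names stand for. Differences of the main lists are therefore also given within each set of columns, as log2 CPM of IGEL replicate 1 against GEM replicates 1 to 3 (1 library against 3, with no test) and of IGEL replicates 2 to 6 against GEM replicates 4 to 6. These are differences of mean log2 CPM, and log2 fold changes fitted to the same libraries can differ from them.

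No gene passed the edgeR quasi-likelihood test at an adjusted p under 0.05 among 17970 genes tested (0% called, smallest adjusted p = 0.999). "Higher" and "lower" therefore describe measured values. Single genes are given with their log2 fold change ± SE, each with an edgeR adjusted p of at least 0.999, and "a p under 0.05" below is an unadjusted edgeR value. Unadjusted p-values under 0.05 were found for 465 genes (2.59%), of which 210 were higher in IGEL (1.17%) and 255 lower (1.42%). DESeq2 called 3 genes at an adjusted p under 0.05, Gzmb, Tigit and Gm47547. Over all genes tested the log2 fold changes had a median of -0.01, with 47.5% higher and 52.5% lower. The common biological coefficient of variation was 0.376, and the median standard error of a log2 fold change was 0.18.

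Groups that did not overlap at all were rare, no more frequent than random ordering of 6 against 6 libraries would give. Every IGEL library lay above every GEM library for 8 genes (0.0445%). Among them were the lymphocyte genes Tigit, Il2rb and Ptpn22, the DNA repair kinase gene Prkdc, and Tcf24, Zdhhc18 and Gm48496. Prkdc measured 34.4 ± 2.15 CPM in GEM and 39.9 ± 2.77 CPM in IGEL (SD, n = 6 each here and below). Every IGEL library lay below every GEM library for 9 genes (0.0501%), which were Cldn18, Cyb561, Syngr1, Ints7, Med29, Mrps12, Gm12061, Gm29666 and Gm31812. The tight junction gene Cldn18 measured 0.697 ± 0.175 CPM in GEM and 0.263 ± 0.156 CPM in IGEL. Med29, a Mediator subunit, measured 8.10 ± 0.455 and 6.60 ± 0.321 CPM. Those named here and not described further were picked with their values in view.

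Among the 12 higher genes with the smallest p were Gzmb, Tigit, Ptpn22, Ctla4, Il2rb, Il2ra and Klrg1, each of them known from lymphocytes. Gzmb (ENSMUSG00000015437, mm10 chromosome 14, 56258838 to 56262260) encodes granzyme B, the protease that killer lymphocytes deliver into target cells. In GEM replicates 1 to 6 it measured 6.88, 4.34, 5.81, 5.77, 17.2 and 6.46 CPM, and in IGEL replicates 1 to 6 it measured 23.2, 27.9, 20.8, 14.2, 23.8 and 23.9 CPM. GEM replicate 5 alone reached into the IGEL range, above IGEL replicate 4 and below the rest. The means were 7.74 ± 4.71 CPM in GEM and 22.3 ± 4.57 CPM in IGEL, a log2 fold change of 1.53 ± 0.31 (SE, adjusted p = 0.999). Without GEM replicate 5 the log2 fold change was 1.93 with an edgeR adjusted p = 0.00349, and DESeq2 on all 12 libraries gave an adjusted p = 0.0052. Over all settings tried its adjusted p ran from 0.00349 to 1. Within column sets the Gzmb difference was 2.05 for the A1 and A2 columns and 1.32 for the rest.

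Tigit (ENSMUSG00000071552, chromosome 16, 43648867 to 43664146), an inhibitory receptor of T and natural killer cells, separated the groups. It measured 3.78, 3.92, 3.21, 3.68, 3.27 and 3.53 CPM in GEM and 6.18, 7.39, 5.81, 5.18, 6.07 and 4.08 CPM in IGEL. The lowest IGEL library, replicate 6, lay just above the highest GEM library. The log2 fold change was 0.70 ± 0.15 (SE), and DESeq2 gave an adjusted p = 0.0384, within 0.0384 to 1 over all settings. Ctla4 (ENSMUSG00000026011, chromosome 1, 60887000 to 60915832), the checkpoint receptor that competes for costimulation, measured 1.31, 1.07, 0.978, 0.478, 1.14 and 0.826 CPM in GEM. In IGEL it measured 4.83, 1.97, 1.298, 1.90, 2.46 and 4.06 CPM. IGEL replicates 1 and 6 were highest, and IGEL replicate 3 lay at the level of GEM replicate 1. The log2 fold change of Ctla4 was 1.505 ± 0.35 (SE).

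Chains of the interleukin-2 receptor, through which T cells receive a growth signal, were higher in IGEL too. The alpha chain gene Il2ra (ENSMUSG00000026770, chromosome 2, 11642807 to 11693193) measured 1.24 to 2.06 CPM in GEM and 4.70, 3.15, 2.04, 2.53, 3.33 and 7.21 CPM in IGEL replicates 1 to 6. Again IGEL replicates 6 and 1 were the highest, and IGEL replicate 3 lay within the GEM range. The log2 fold change was 1.15 ± 0.29 (SE). The beta chain gene Il2rb (ENSMUSG00000068227, chromosome 15, 78479256 to 78495271) measured 10.2, 10.9, 11.4, 17.1, 18.5 and 13.9 CPM in GEM and 18.9, 24.8, 20.8, 19.4, 25.9 and 20.9 CPM in IGEL. Its groups touched without overlapping, GEM replicate 5 against IGEL replicate 1, and its log2 fold change was 0.67 ± 0.16 (SE). Ptpn22, a phosphatase that dampens T cell receptor signalling, measured 11.6 to 14.6 CPM in GEM and 14.97 to 22.9 CPM in IGEL (log2 fold change 0.50 ± 0.11). Klrg1, a receptor of terminally differentiated killer cells, measured 0.209 to 0.965 CPM in GEM and 0.64 to 1.85 CPM in IGEL (1.21 ± 0.36). Ifng, the gene of interferon gamma, was too low to be tested.

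**Figure D1:**
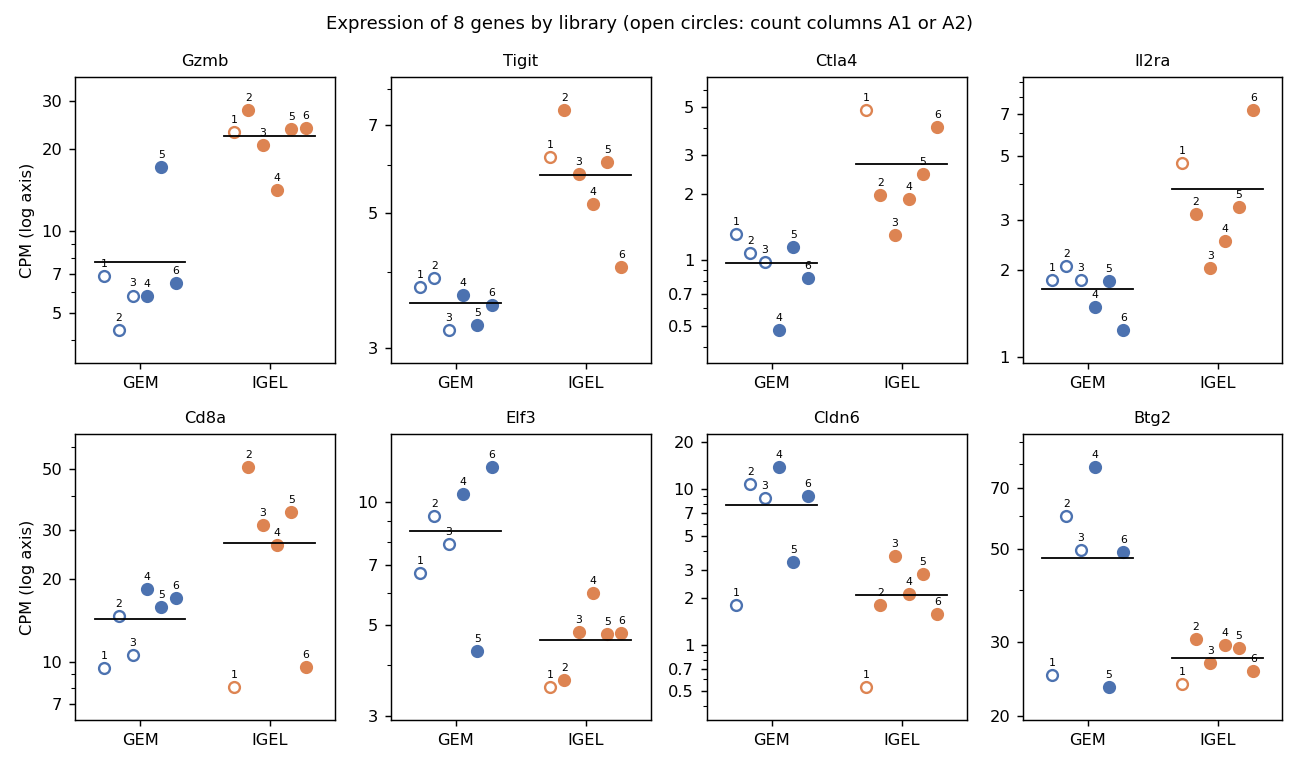
CPM of 8 genes (log axes) in each GEM and IGEL library. Numbers are replicates, open circles the libraries with A1 or A2 columns, and lines group means. Gzmb, Tigit, Ctla4 and Il2ra are higher in nearly every IGEL library, Cd8a is high in IGEL replicates 2 to 5 and at low GEM levels in replicates 1 and 6, and Elf3, Cldn6 and Btg2 are low in IGEL, with GEM replicate 1 or 5 at IGEL levels.

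T cell genes, a list that also holds the subset genes Cd4, Cd8a and Cd8b1, divided the IGEL libraries among themselves. Of 20 such genes 19 were higher in IGEL at a median log2 fold change of 0.66. Of these 1 had a p under 0.05, beside 1.17% of all genes tested. The mean log2 CPM of the 20 genes was 1.53, 2.36, 2.01, 2.32, 2.05 and 2.59 in GEM and 1.32, 3.54, 2.88, 2.89, 3.16 and 1.56 in IGEL replicates 1 to 6. IGEL replicates 2 to 5 lay above all GEM libraries, replicate 1 below all of them and replicate 6 at the level of the lowest. Without IGEL replicate 2 the median was 0.38, and without IGEL replicate 1 it was 0.84. Within column sets it was -0.60 with 0 of 20 higher in the A1 and A2 columns, and 0.50 with 19 of 20 higher in the rest. Cd8a, a chain of the coreceptor of killer T cells (chromosome 6, 71373427 to 71379173), measured 9.47, 14.7, 10.6, 18.3, 15.7 and 17.01 CPM in GEM and 8.09, 50.9, 31.2, 26.4, 35.1 and 9.53 CPM in IGEL (log2 fold change 0.91 ± 0.40). The T cell receptor constant gene Trac measured 3.91 to 8.22 CPM in GEM and 3.10 to 16.7 CPM in IGEL, with replicates 1 and 6 again lowest (0.73 ± 0.37). In bulk tissue, fewer cells of a type and less RNA per cell cannot be told apart.

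In IGEL replicates 1 and 6 the T cell list was thus low, while Gzmb lay within the range of the other 4 IGEL libraries and Ctla4 and Il2ra lay above it. The leukocyte gene Ptprc measured 39.47 and 57.68 CPM in these libraries, against 104.9 to 192.3 CPM in the other IGEL libraries and 71.39 to 122.8 CPM in GEM. The same libraries and GEM replicate 1 held the least acinar RNA, 0.009386, 0.007022 and 0.007026% of counts. With the acinar score as a covariate the log2 fold change of Gzmb was 1.51 and that of Ctla4 1.33. With the first principal component as a covariate they were 1.48 and 1.26. Whether tissue content has a part in these differences was not tested.

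**Figure D2:**
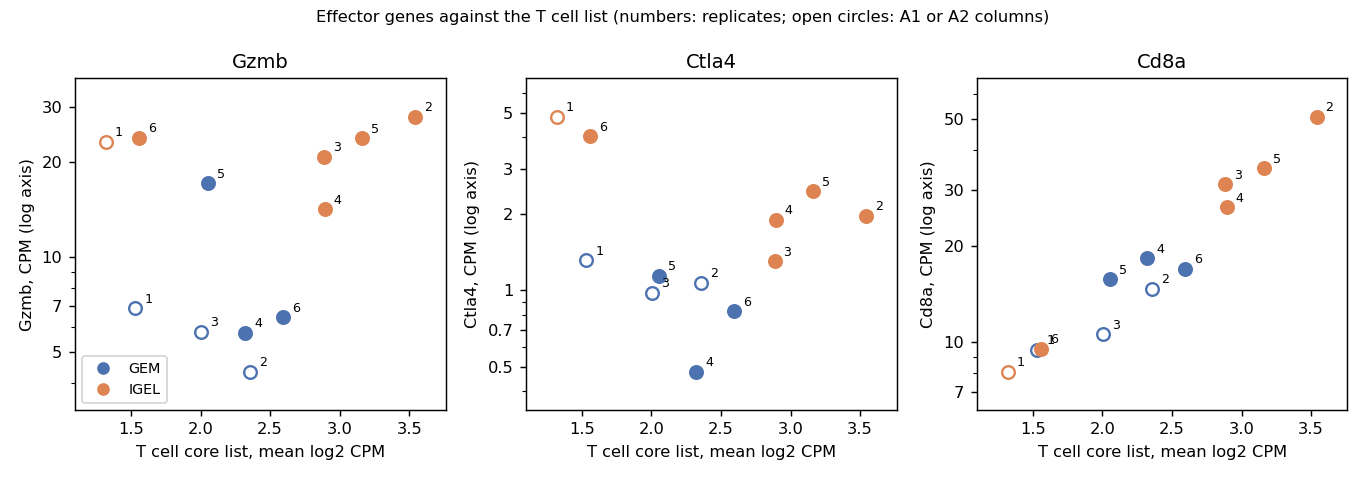
CPM of Gzmb, Ctla4 and Cd8a (log axes) against the mean log2 CPM of 20 T cell genes, 1 point per library. Numbers are replicates, colours groups and open circles the A1 or A2 columns. Cd8a follows the T cell list, but it is itself 1 of the 20 genes, so part of this agreement is built in. Gzmb and Ctla4 are not members, and they are high in IGEL replicates 1 and 6 (Gzmb 23.2 and 23.9 CPM), where the list is low.

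Cytotoxic T and natural killer cell genes were higher in IGEL for each of the 13 members tested (of 16 listed), at a median of 0.69, and 3 had a p under 0.05 (1.17% of all genes tested were higher at such a p). Within column sets the median was 0.01 with 7 of 13 higher in the A1 and A2 columns, and 0.40 with 13 of 13 higher in the rest. Without IGEL replicate 2 the median was 0.43, and with a term for the column names 0.38. Gzmk, a granzyme of effector memory T cells, measured 0.587 to 2.002 CPM in GEM and 1.297, 4.89, 3.63, 3.98, 4.002 and 1.39 CPM in IGEL (1.27 ± 0.40). Nkg7, a protein of killing granules, measured 2.89 to 5.99 CPM in GEM and 3.76, 16.02, 9.97, 7.36, 11.9 and 4.64 CPM in IGEL (0.94 ± 0.34). Both were high in IGEL replicates 2 to 5 and inside the GEM range in replicates 1 and 6, unlike Gzmb.

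Among 14 checkpoint genes 10 were higher in IGEL at a median of 0.29 (0.15 without IGEL replicate 2). Of these 4 had a p under 0.05, namely Ctla4, Tigit, Cd274 and Pdcd1, beside 1.17% of all genes tested. Ctla4 and Tigit were already named above for their small p. Within column sets the checkpoint median was -0.13 with 6 of 14 higher, and 0.42 with 11 of 14 higher. Pdcd1 encodes the receptor PD-1 and had a log2 fold change of 0.78. The gene of its ligand PD-L1, Cd274 (chromosome 19, 29367455 to 29388095), measured 29.7, 23.1, 25.1, 31.7, 24.6 and 24.8 CPM in GEM and 30.1, 48.1, 27.6, 36.8, 38.0 and 31.6 CPM in IGEL (0.42 ± 0.13). GEM replicate 4 lay above 3 of the IGEL libraries. Regulatory T cell genes had a median of 0.19 with 5 of 8 higher. Of these 1 had a p under 0.05, beside 1.17% of all genes tested. It was Il2ra, which other activated T cells also express. Foxp3, the factor that defines regulatory T cells, measured 1.07 ± 0.311 CPM in GEM and 1.02 ± 0.52 CPM in IGEL (-0.06 ± 0.35), and its sign changed with the processing.

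Antibody genes were high in 3 IGEL libraries. Of 16 B and plasma cell genes tested (of 20 listed), 12 were higher at a median of 0.77. Of these 1 had a p under 0.05, beside 1.17% of all genes tested. The constant region gene Ighg1 measured 0 to 0.717 CPM in GEM and 0.839, 1.28, 0.0885, 27.7, 15.3 and 0.174 CPM in IGEL (4.11 ± 1.39), so that replicates 4 and 5 carried the difference. The light chain gene Igkc measured 11.97 to 38.6 CPM in GEM and 86.2, 94.2 and 124.8 CPM in IGEL replicates 2, 4 and 5, with 4.53 to 31.6 CPM in the other 3. The list median was -1.34 and 0.34 within the column sets, 0.34 without IGEL replicate 5 and 0.03 with a term for the column names. Antibody constant genes are near-identical in places, so values of single members are uncertain.

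Myeloid lists lay near the median of all genes. Of 18 macrophage genes 15 were lower in IGEL, with 0 at a p under 0.05 and a median of -0.14. Within column sets the macrophage median was -1.23 with 3 of 18 higher, and -0.05 with 7 of 18 higher. The fitted median was 0.04 without GEM replicate 4, 0.01 without the A1 and A2 libraries and -0.32 without IGEL replicate 5. Its sign thus changed with the libraries left out. The values -0.05 and 0.01 come from the same 8 libraries and differ only in measure, mean log2 CPM against the fit. The defining gene Adgre1 (F4/80) measured 35.1 to 79.7 CPM in GEM and 12.5 to 79.8 CPM in IGEL. Csf1, the macrophage growth factor, was among the 3 higher members, with 165 ± 23.1 CPM in GEM and 190.5 ± 22.8 CPM in IGEL (0.21 ± 0.10). Trem2, a lipid receptor of tumour macrophages, measured 18.7 ± 9.94 CPM in GEM and 11.9 ± 5.37 CPM in IGEL (-0.65 ± 0.36). Dendritic cell genes had a median of 0.02 (6 of 11 tested higher) and neutrophil genes one of -0.04 (6 of 13 tested higher). The neutrophil collagenase gene Mmp8, 1 of the 13, was higher at a p under 0.05, beside 1.17% of all genes tested. It measured 1.62 ± 0.806 CPM in GEM and 3.20 ± 1.92 CPM in IGEL. The neutrophil median was -0.70 without IGEL replicate 5. Inflammatory cytokines (11 of 16 higher, median 0.06), nucleic acid and Toll-like sensing (8 of 16, 0.00) and tryptophan metabolism (6 of 12, -0.06) held no gene at a p under 0.05.

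Genes of MHC class I presentation, which show cell proteins to killer T cells, were higher in IGEL for all 16 members, at a median log2 fold change of 0.43. Of these 6 had a p under 0.05, beside 1.17% of all genes tested. The light chain gene B2m (chromosome 2, 122147686 to 122153083) measured 1337, 786, 1179, 1238, 1693 and 1129 CPM in GEM and 1476, 1965, 1643, 1864, 1632 and 1608 CPM in IGEL (0.47 ± 0.15). GEM replicate 5 alone reached the IGEL range. Nlrc5, the activator of class I genes, measured 163 ± 25.3 CPM in GEM and 228 ± 48.7 CPM in IGEL (0.48 ± 0.15). The heavy chain gene H2-D1 measured 1796 ± 406 CPM in GEM and 2469 ± 236 CPM in IGEL (0.46 ± 0.15). H2-K1, H2-Q4 and H2-T23 were the others, with log2 fold changes of 0.47, 0.46 and 0.68. Heavy chain genes are near-identical in places, so counts of single members can be split between them. The list median was 0.10 and 0.24 within the column sets, 0.25 without IGEL replicate 2 and 0.19 with a term for the column names. Both within-set values lay below the fitted median over 12 libraries, though these are different measures. The same held for the T cell, cytotoxic, B and plasma cell, class II and interferon lists. For the checkpoint list the second within-set value lay above it.

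Class II genes, with which antigen-presenting cells address helper T cells, were spread over a wider range in IGEL. All 10 were higher at a median of 0.30, with 0 at a p under 0.05. Their mean log2 CPM was 4.19 to 5.03 in GEM and 2.67, 6.21, 4.61, 4.996, 5.81 and 3.30 in IGEL replicates 1 to 6, so that 2 IGEL libraries lay above all GEM libraries and 2 below. H2-Aa measured 53.1 to 139.5 CPM in GEM and 19.4, 354, 96.1, 112, 219 and 23.3 CPM in IGEL. The list median was -1.86 and 0.04 within the column sets, -0.03 without IGEL replicate 2 and -0.15 with a term for the column names. Fitted without the A1 and A2 libraries it was 0.42, so for the same 8 libraries the size depended on the measure.

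Interferon-stimulated genes were higher in IGEL with 1 exception. All 26 genes of the type I interferon response were higher, at a median of 0.53 with 0 at a p under 0.05. Of 21 genes of the interferon gamma response 20 were higher, at a median of 0.68. Of these 2 had a p under 0.05, beside 1.17% of all genes tested. The 3 genes of each list with the smallest p were looked up for their promoters, and the 5 found are printed because their lists share this direction. They are the 250 bases before the transcript start, 5′ to 3′ on the gene's strand, from RefSeq (GRCm38.p6). Capitals mark matches to the core of the interferon-stimulated response element (GAAA, any 2 bases and GAAA again) or to the gamma-activated site, TTCNNNGAA, searched on both strands.
Gbp2, chr3:142620413-142620662, plus strand: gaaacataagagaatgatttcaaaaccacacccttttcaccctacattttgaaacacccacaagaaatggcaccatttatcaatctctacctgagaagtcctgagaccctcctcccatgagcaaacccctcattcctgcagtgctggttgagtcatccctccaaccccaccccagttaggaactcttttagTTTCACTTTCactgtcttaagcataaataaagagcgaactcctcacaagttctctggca
Tgtp2, chr11:49064213-49064462, minus strand: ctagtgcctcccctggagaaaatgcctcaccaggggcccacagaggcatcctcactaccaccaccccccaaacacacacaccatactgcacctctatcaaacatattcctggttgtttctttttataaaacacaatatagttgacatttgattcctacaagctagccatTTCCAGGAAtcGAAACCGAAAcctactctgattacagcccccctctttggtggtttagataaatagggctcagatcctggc
Oas3, chr5:120777660-120777909, minus strand: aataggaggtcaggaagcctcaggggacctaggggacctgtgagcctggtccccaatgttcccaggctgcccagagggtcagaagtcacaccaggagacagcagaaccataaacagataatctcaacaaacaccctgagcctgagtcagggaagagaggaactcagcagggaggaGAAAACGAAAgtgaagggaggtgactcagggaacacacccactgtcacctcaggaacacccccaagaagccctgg
Ifi44, chr3:151749911-151750160, minus strand: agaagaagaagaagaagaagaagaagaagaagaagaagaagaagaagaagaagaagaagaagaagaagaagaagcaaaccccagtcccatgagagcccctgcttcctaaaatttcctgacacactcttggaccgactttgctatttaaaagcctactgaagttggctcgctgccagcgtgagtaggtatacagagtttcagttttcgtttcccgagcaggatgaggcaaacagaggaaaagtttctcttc
Cmpk2, chr12:26468965-26469214, plus strand: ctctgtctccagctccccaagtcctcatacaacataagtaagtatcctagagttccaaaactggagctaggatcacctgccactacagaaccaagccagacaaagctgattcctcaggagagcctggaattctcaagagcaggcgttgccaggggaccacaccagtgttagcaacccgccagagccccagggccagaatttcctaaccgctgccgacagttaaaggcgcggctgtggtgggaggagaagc
Gbp2 and Oas3 held 1 response element core each, in Gbp2 on the opposite strand. Tgtp2 held a gamma-activated site followed after 2 bases by a response element core. Ifi44 and Cmpk2 held neither in this window. Of 32851 promoters of this length, 2.98% held the response element core and 7.02% the gamma-activated site. Among 19 promoters of 16 interferon gamma genes the shares were 57.9 and 47.4%, and among 21 promoters of 19 type I genes they were 42.9 and 14.3%. Class I presentation promoters held them in 12.5 and 6.25%. A match of letters is a description and not a bound site, and the lists hold genes known to respond to interferon.

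Gbp2, a GTPase that attacks the vacuoles of microbes, measured 57.5, 30.6, 54.0, 67.1, 68.3 and 62.9 CPM in GEM and 33.6, 143.9, 84.2, 111.1, 127.3 and 61.9 CPM in IGEL (0.72 ± 0.31). IGEL replicates 2 to 5 lay above every GEM library, replicates 1 and 6 did not. Tgtp2, a GTPase of the same defence with a near-identical neighbour, measured 6.64 to 22.1 CPM in GEM and 7.45, 58.2, 22.1, 40.1, 35.1 and 16.7 CPM in IGEL (1.003 ± 0.45). Oas3, an antiviral synthetase, measured 60.8 to 158.1 CPM in GEM and 72.8, 263.4, 136.8, 214, 117.1 and 141.8 CPM in IGEL (0.56 ± 0.30). Here IGEL replicates 2 and 4 alone lay above GEM. The other type I genes looked up, Ifi44 and Cmpk2, had log2 fold changes of 0.94 ± 0.48 and 0.62 ± 0.33. Cxcl9, the chemokine that draws T cells, measured 8.73, 5.88, 8.97, 11.03, 14.7 and 32.7 CPM in GEM and 2.65, 90.7, 26.4, 35.2, 58.9 and 5.53 CPM in IGEL (1.42 ± 0.72).

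Both interferon lists differed between the column sets. In the A1 and A2 columns their medians were -0.62 (type I) and -0.78 (interferon gamma) with 0 members higher in IGEL replicate 1. That library is the only IGEL library of its set and also the lowest for Ptprc and the T cell list, so its column name and its tissue content cannot be told apart. IGEL replicate 6, in the other set, had a mean log2 CPM of 4.42 on the interferon gamma list, within the GEM range of 4.10 to 5.12. In the rest they were 0.33 and 0.39 with all 26 and all 21 higher. With a term for the column names they were 0.11 and 0.17. Without IGEL replicate 2, the library highest in both, they were 0.20 and 0.37, and without GEM replicate 4 the type I median was 0.81. The mean log2 CPM of the type I list was 4.95 to 6.35 in GEM and 4.36, 7.03, 5.56, 6.59, 5.68 and 5.44 in IGEL, where GEM replicate 4 lay above all but 2 IGEL libraries.

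**Figure D3:**
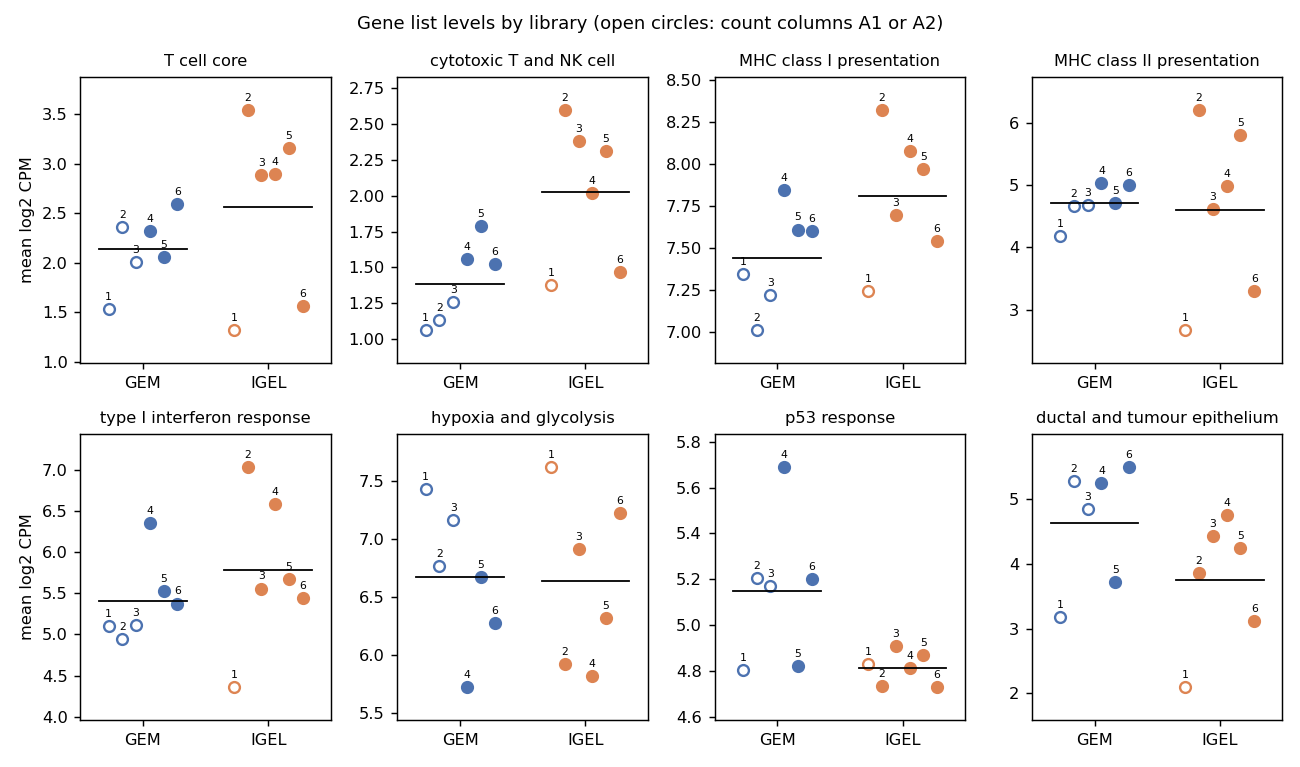
Mean log2 CPM of 8 gene lists in each GEM and IGEL library. Numbers are replicates, open circles the libraries with A1 or A2 columns, and lines group means. IGEL replicates 1 and 6 lie lowest among IGEL libraries for T cell, class II and ductal lists, and the p53 list spans 4.80 to 5.69 in GEM and 4.73 to 4.91 in IGEL.

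Of 15 ductal and tumour epithelial genes tested (of 16 listed), 14 were lower at a median of -0.90, and 3 had a p under 0.05, beside 1.42% of all genes tested. The junction gene Cldn4 (chromosome 5, 134945119 to 134946934) measured 9.80, 65.4, 32.6, 62.5, 19.8 and 35.1 CPM in GEM and 2.42, 8.37, 16.5, 4.61, 26.8 and 7.73 CPM in IGEL (-1.76 ± 0.58). The ductal keratin gene Krt7 measured 4.94 to 23.4 CPM in GEM and 0.738 to 10.9 CPM in IGEL (-1.30 ± 0.52). The epithelial adhesion gene Epcam measured 6.61, 40.7, 29.0, 36.7, 12.6 and 47.1 CPM in GEM and 4.22, 10.6, 17.97, 19.6, 19.3 and 4.98 CPM in IGEL (-1.17 ± 0.51). In all 3, GEM replicates 1 and 5 lay at IGEL levels and the other 4 GEM libraries above every IGEL library. Krt19, another ductal keratin, had a log2 fold change of -0.35 ± 0.30. The list median was -0.54 without GEM replicate 6, -1.34 without IGEL replicate 4, and -2.82 and -0.82 within the column sets.

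Elf3, Cldn6, Grhl2 and Clu, named for being among the 12 lower genes with the smallest p, are no independent evidence for the direction of the ductal list. Elf3 (chromosome 1, 135253575 to 135258568), a transcription factor of epithelia, measured 6.70, 9.25, 7.91, 10.46, 4.33 and 12.2 CPM in GEM and 3.53, 3.68, 4.81, 6.00, 4.76 and 4.78 CPM in IGEL (-0.88 ± 0.23). GEM replicate 5 was the only GEM library within the IGEL range. Cldn6, a junction protein of embryonic and some tumour epithelia, measured 1.79, 10.8, 8.80, 13.9, 3.39 and 8.97 CPM in GEM and 0.534, 1.79, 3.69, 2.12, 2.83 and 1.56 CPM in IGEL (-1.93 ± 0.51). Grhl2, a factor that keeps epithelial identity, measured 9.50 ± 3.06 CPM in GEM and 5.69 ± 1.71 CPM in IGEL (-0.74 ± 0.25). Clu, the secreted chaperone clusterin, measured 387, 3424, 1789.9, 2944, 791 and 3322 CPM in GEM and 267, 638, 927, 830.0, 1022 and 356 CPM in IGEL (-1.65 ± 0.52). Mesenchymal transition genes were higher for 9 of 10 members at a median of 0.16, with 0 at a p under 0.05. Snai2, a repressor of epithelial genes, measured 7.36 ± 2.03 CPM in GEM and 10.2 ± 2.99 CPM in IGEL (0.47 ± 0.22).

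Target genes of p53, the damage-activated brake on division, were lower in IGEL. Of 22 members 20 were lower at a median of -0.27, and 6 had a p under 0.05, beside 1.42% of all genes tested (Btg2, Ccng1, Eda2r, Gdf15, Bax and Bbc3). Their mean log2 CPM was 4.80, 5.21, 5.17, 5.69, 4.82 and 5.20 in GEM and 4.83, 4.74, 4.91, 4.82, 4.87 and 4.73 in IGEL. IGEL libraries kept within a narrow band, and GEM replicates 1 and 5 lay in that band while the other 4 GEM libraries lay above it. Btg2 (chromosome 1, 134075170 to 134079120), which slows the cell cycle, measured 25.1, 60.2, 49.7, 78.6, 23.5 and 49.3 CPM in GEM and 23.9, 30.5, 26.8, 29.5, 29.0 and 25.6 CPM in IGEL (-0.79 ± 0.26). Ccng1, a cyclin induced by p53, measured 71.95 to 180.3 CPM in GEM and 69.6 to 86.6 CPM in IGEL (-0.47 ± 0.19). The receptor gene Eda2r measured 14.3 ± 3.79 CPM in GEM and 9.69 ± 2.80 CPM in IGEL (-0.56 ± 0.21). Cdkn1a, the best known p53 target, measured 155 ± 35.1 CPM in GEM and 136 ± 57.7 CPM in IGEL (-0.19 ± 0.27). The list median was -0.09 without GEM replicate 4, and -0.01 and -0.40 within the column sets.

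Proliferation genes were lower by a small amount. All 24 mitosis genes were lower at a median of -0.24, with 1 at a p under 0.05, beside 1.42% of all genes tested. Of 21 DNA replication genes 19 were lower at a median of -0.14, with 0 at such a p. The spindle gene Spag5 measured 48.1, 66.8, 65.4, 118.7, 64.9 and 86.0 CPM in GEM and 37.9, 63.5, 57.9, 60.6, 61.9 and 45.1 CPM in IGEL (-0.46 ± 0.20). The proliferation marker Mki67 measured 359 ± 107 CPM in GEM and 301 ± 73.2 CPM in IGEL (-0.25 ± 0.21). GEM replicate 4 was the highest library for both, and without it the medians were -0.07 for mitosis and -0.01 for DNA replication.

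Genes that import, activate or counter nucleoside analogues, the drug class of many pancreatic cancer regimens, lay near the median of all genes. Of 18 tested (of 19 listed) 12 were lower at a median of -0.05, with 0 at a p under 0.05. The activating kinase gene Dck measured 35.1 ± 10.4 CPM in GEM and 32.6 ± 11.1 CPM in IGEL (-0.11 ± 0.25), and Rrm1, a subunit of the enzyme that makes deoxynucleotides, 160.4 ± 51.3 and 137.3 ± 23.4 CPM (-0.22 ± 0.19). The unfolded protein response (4 of 19 higher, median -0.05), NRF2 targets (4 of 12, -0.06) and sterol and fatty acid synthesis (3 of 16, -0.09) also held no gene at a p under 0.05.

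Of 22 collagen and matrix genes 18 were lower at a median of -0.23, with 0 at a p under 0.05. The main fibrillar collagen gene Col1a1 measured 4046 to 11719 CPM in GEM and 1573 to 8704 CPM in IGEL (-0.28 ± 0.36). Lox, the enzyme that crosslinks collagen, measured 163 ± 65.9 CPM in GEM and 109.5 ± 48.7 CPM in IGEL (-0.58 ± 0.35). IGEL replicate 1 was the lowest library of the collagen list. Within column sets the collagen median was -1.38 and -0.31, and with a term for the column names it was -0.61. It was -0.05 without GEM replicate 4, -0.40 without IGEL replicate 5 and -0.07 with voom. Of 16 fibroblast and pericyte genes 9 were lower at a median of -0.10, which was 0.10 without IGEL replicate 1 and changed sign in 5 settings. Of 16 endothelial genes 13 were lower at a median of -0.12, which was -0.03 without IGEL replicate 1 and -0.22 without IGEL replicate 5. Acta2, smooth muscle actin of activated fibroblasts, had a log2 fold change of -0.08 ± 0.44 whose sign changed with the processing. Renin-angiotensin genes, the system that losartan blocks, had a median of -0.06 with 3 of 8 tested genes higher (of 12 listed), and the receptor gene Agtr1a measured 1.15 ± 0.677 CPM in GEM and 0.879 ± 0.485 CPM in IGEL.

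TGF-beta signalling, which drives matrix production and restrains T cells, had a median of 0.05 with 10 of 18 genes higher. Of the higher genes 2 had a p under 0.05, beside 1.17% of all genes tested. Smad7, the pathway's feedback inhibitor, measured 52.6, 36.7, 41.1, 46.7, 50.1 and 40.3 CPM in GEM and 53.8, 59.5, 54.4, 49.4, 54.1 and 62.6 CPM in IGEL (0.32 ± 0.10). Ltbp1, which anchors latent TGF-beta in the matrix, measured 195 ± 36.7 CPM in GEM and 259 ± 25.2 CPM in IGEL (0.41 ± 0.12). For Smad7 GEM replicates 1 and 5 lay above IGEL replicate 4 and below the other IGEL libraries.

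Hypoxia and glycolysis genes were higher for 15 of 22 members at a median of 0.04, with 0 at a p under 0.05. Within column sets 21 and 20 of 22 were higher, at medians of 0.50 and 0.20, both above the pooled median. The median over 12 libraries was -0.18 without IGEL replicate 1 and 0.20 without GEM replicate 1, and -0.24 with the first principal component as a covariate, and it changed sign in 7 settings. Vegfa, the vessel growth factor, measured 411, 257, 318, 87.9, 215 and 177 CPM in GEM and 566, 106, 288, 132, 145 and 374 CPM in IGEL. Its values differed up to several-fold between libraries of 1 group, and its log2 fold change of 0.14 ± 0.45 changed sign with the processing.

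Lists for other tissue in the piece of tumour moved with single libraries. Acinar genes were lower for all 26 members at a median of -0.66, with 0 at a p under 0.05, and the median was 1.07 without GEM replicate 6 and -2.02 without IGEL replicate 4. Islet genes had a median of 0.03 (8 of 15 tested higher), and -1.74 without IGEL replicate 4. Muscle genes had a median of 1.62 over 8 tested of 18, and -0.20 without IGEL replicate 4. Of the 8, 3 were higher at a p under 0.05, beside 1.17% of all genes tested. Red blood cell genes were lower for all 5 tested at a median of -1.12, and -0.20 without GEM replicate 2. Immediate early genes (2 of 10 higher, -0.14) and mitochondrially encoded genes (4 of 13 higher, -0.03) held none at a p under 0.05, nor did the 3 adipose and 2 liver genes tested.

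**Figure D4:**
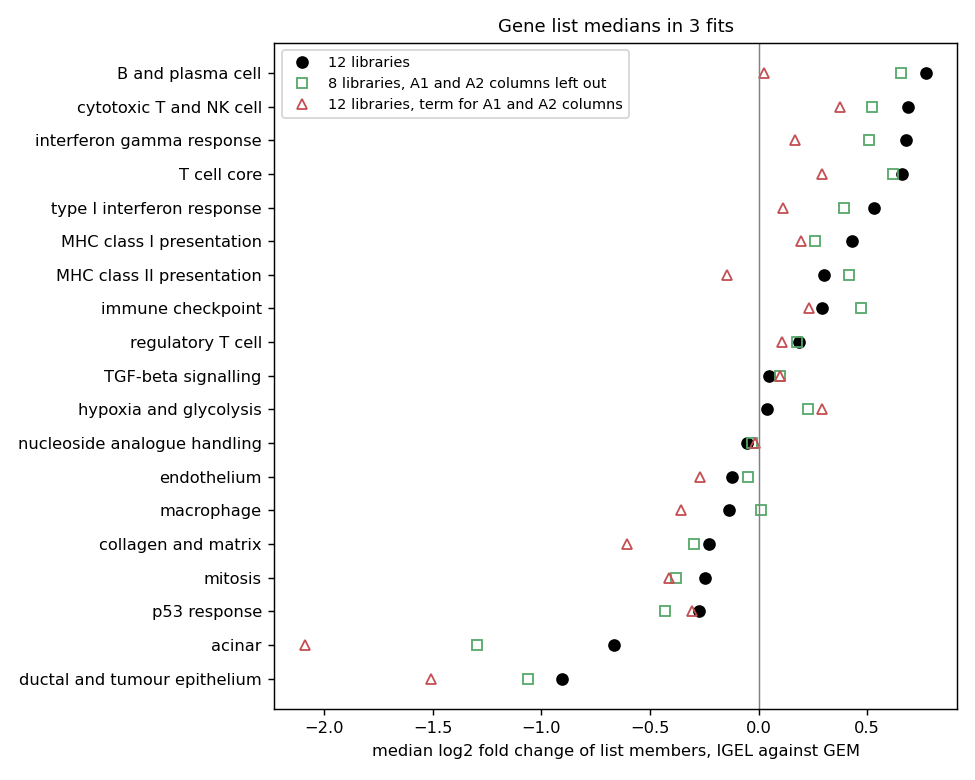
Median log2 fold change of the members of 19 gene lists, IGEL against GEM (horizontal axis), in the fit of 12 libraries, the fit of 8 libraries without the A1 and A2 columns, and the fit of 12 with a term for these columns. T cell and interferon medians are above 0 in each fit (T cell 0.66, 0.62 and 0.29), the class II median changes sign, and ductal and p53 medians are below 0 in each.

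Further genes among the 12 higher and 12 lower with the smallest p had no common list. Higher were Tcf24 (1.43 ± 0.402 CPM in GEM, 2.36 ± 0.43 CPM in IGEL), the limb patterning gene Hoxa13 (1.61 ± 0.663 and 3.02 ± 0.98 CPM), Ebf4 (7.33 ± 1.80 and 11.04 ± 2.75 CPM), Rhof (2.42 ± 0.327 and 3.74 ± 1.24 CPM) and Mndal, an interferon-inducible DNA-binding protein gene (68.1 ± 19.004 and 107.6 ± 38.9 CPM). Lower were the neuronal chromatin gene Dpf1 (1.32 ± 0.578 and 0.549 ± 0.132 CPM) and the vesicle gene Syngr1 (5.13 ± 1.27 and 2.93 ± 0.657 CPM). The scavenger receptor gene Cd163l1, a marker of a subset of gamma delta T cells, measured 0.596, 3.32, 2.10, 3.61, 0.701 and 0.676 CPM in GEM and 0.177 to 0.728 CPM in IGEL (-1.79 ± 0.52), so that 3 GEM libraries carried its difference. Klc3 and Faim2 were lower too, with log2 fold changes of -0.61 and -1.44. These genes had a p under 0.05.

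The remaining groups place these genes on a wider scale, here as CPM scaled over all 24 libraries and with no test. Gzmb averaged 8.13 ± 4.72 CPM in PBS and 7.56 ± 4.49 CPM in GEM, against 21.9 ± 4.46 CPM in IGEL and 15.5 ± 7.43 CPM in LIGEL. GEM thus lay at the PBS level, and the LIGEL range of 6.01 to 26.9 CPM covered most of both. Ctla4 averaged 0.613 ± 0.264, 0.947 ± 0.279, 2.71 ± 1.37 and 2.46 ± 2.28 CPM in the same order, and Tigit 2.97 ± 1.25, 3.50 ± 0.303, 5.68 ± 1.09 and 4.22 ± 0.986 CPM. Btg2 averaged 64.7 ± 44.8, 47.0 ± 21.1, 27.05 ± 2.51 and 30.4 ± 5.21 CPM, and Elf3 9.08 ± 6.71, 8.33 ± 2.81, 4.51 ± 0.885 and 4.37 ± 0.551 CPM. For these 2 genes IGEL and LIGEL had lower means and smaller SDs than PBS and GEM.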

How the data were processed

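Gene expression was measured by RNA sequencing of frozen tumour tissue extracted with Trizol, per the labels' protocols. The authors deposited 1 table of raw read counts per gene for 54532 genes, without normalization. HISAT2, Subread's featureCounts and the build mm10 stand in the submitters' processing notes, without versions. No source used here gives strandedness or the annotation release, so reads of overlapping antisense genes cannot be told apart. Each sample is 1 column, matched to its label by name.

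Counts of the 6 GEM and 6 IGEL libraries were fitted with edgeR 4.0.16 (R 4.3.3). Its filterByExpr, with a minimum count of 10 and a minimum total of 15, retained 17970 genes and dropped 0.101% of counts. Totals were scaled with TMM factors and tested with the robust quasi-likelihood F test, with p-values adjusted by Benjamini-Hochberg over all genes tested and a threshold of 0.05. Log2 CPM adds a prior count of 2. Scripts were tested on simulated counts. No pair of libraries agreed within sampling noise (smallest chi-square per degree of freedom 17.0).

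Named genes were up to 12 higher and 12 lower with the smallest p (mean of at least 1 CPM, absolute log2 fold change of at least 0.5, at least 5 IGEL libraries beyond the GEM median, predicted genes and pseudogenes left out), the 3 members of each list with the smallest p, and 20 fixed genes. The 38 lists hold 614 genes. The comparison, lists and rule were chosen with earlier results of these data known. Xist, Y-linked genes, Ptprc, Pdcd1, Bax, Bbc3, Gdf15, H2-K1, H2-Q4, H2-T23, Gm47547 and the non-overlapping genes were named after their values were seen. Some genes that the rule names are not reported here. Alternatives were DESeq2 1.42.0, voom of limma 3.58.1 with quality weights, other scalings, no filter, all 24 libraries, the replicate number as a block, 2 treatments of the column names, the acinar score as a covariate, libraries left out singly or in a pair and, added after seeing the data, the first principal component as a covariate.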

Additional observations from a re-analysis of the deposited data

Results flagged for a closer look

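A library was singled out here where its gap to the nearest of the other 5 libraries of its group, divided by the group's range, exceeded Dixon's 95% critical value for 6 samples. For CPM values and the muscle share, gap and range were taken on log2 values with a small constant added. For list levels and TMM factors they were taken on the values as printed. Chance alone gives about 1 such case in 20 groups, and up to 272 groups were examined, so single entries carry little weight.

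Among effector and immune genes, GEM replicate 5 stood apart for Gzmb with 17.19 CPM, where the other GEM libraries measured 4.339 to 6.88 CPM. GEM replicate 6 measured 8.824 CPM of the T cell gene Cd6 (others 3.276 to 4.512 CPM). GEM replicate 4 measured 210.6 CPM of Csf1 (others 149.3 to 162.6 CPM) and 81.69 CPM of the interferon-stimulated gene Isg15 (others 20.44 to 33.55 CPM), and its regulatory T cell list was low at a mean log2 CPM of 1.163 (others 1.587 to 1.708). GEM replicate 2 measured 30.61 CPM of Gbp2 (others 54.03 to 68.31 CPM). The B and plasma cell list of GEM replicate 1 was low at 0.0404 (others 1.162 to 1.735). In IGEL, replicate 2 measured 1.688 CPM of Syngr1 (others 2.833 to 3.535 CPM), and replicate 3 measured 0.1771 CPM of Cd163l1 (others 0.4605 to 0.7277 CPM).

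Among stromal and tissue values, GEM replicate 1 measured 32.82 CPM of the endothelial receptor gene Kdr (others 43.9 to 51.36 CPM), and the collagen and matrix list of IGEL replicate 1 was low at 7.186 (others 8.372 to 9.073). IGEL replicate 4 measured 69.1 CPM of Atp2a1, 53.49 CPM of Neb and 141.2 CPM of Ttn, all genes of skeletal muscle (others at most 0.6157, 4.282 and 9.994 CPM). Its muscle list stood at 4.202 (others 0.1071 to 0.6838), and muscle genes took 0.04251% of its counts (others 0.001756 to 0.002423%). The TMM factor of GEM replicate 6, which had 19.52% acinar counts, was 0.8425 (others 0.9915 to 1.076).

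Xist, the RNA that silences 1 X chromosome in female cells, measured 0.08853 CPM in IGEL replicate 3, where the other IGEL libraries measured 111.7 to 648.7 CPM. Y-linked genes measured 0 CPM in that library, and 0.5371 CPM in IGEL replicate 4, the only library of the 12 where any were counted.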

How the results depend on the processing

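Of 24 alternatives, 22 called no gene at an adjusted p under 0.05. DESeq2 called 3 genes, and leaving out 1 library gave 0 to 1, the 1 being Gzmb without GEM replicate 5. At an unadjusted p under 0.05, genes higher in IGEL numbered 711 without an expression filter (33152 genes tested), 391 with voom, 345 with the acinar score and 466 with the first principal component as a covariate, and 178 to 418 with 1 library left out. Genes lower in IGEL numbered 749 without the filter, 136 with all 24 libraries, 648 with a term for the A1 and A2 columns, 481 with the acinar score, 489 with the first principal component and 140 to 467 with 1 library left out. Without the A1 and A2 libraries 416 genes had a p under 0.05, of which 161 were among the 465.

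Replicate numbers are shared by the groups. The correlations of deviations over all genes for numbers 1 to 6 were 0.741, 0.224, -0.004, 0.528, -0.129 and -0.621, and 2 of 6 libraries correlated best with their own number. Tissue content also varied between libraries, so these values do not settle whether equal numbers pair the samples. With the replicate block 0 genes passed, 178 were higher and 362 lower at an unadjusted p under 0.05, and the muscle median was 0.415. The block also turned H2-Eb1 (-0.0839), H2-Aa (-0.0680), H2-Ab1 (-0.0765), Cela1 (0.743), Cela2a (1.20) and Cpa1 (0.835).

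The muscle median was -0.043 without IGEL replicate 4 and GEM replicate 6, and -0.201 to 1.81 with 1 library left out. The neutrophil median was then -0.703 to 0.208. The red blood cell median was 0.111 without the A1 and A2 libraries. Signs of log2 fold changes turned for class II genes with a term for the columns (H2-Eb1 -0.104, H2-Aa -0.0627, H2-Ab1 -0.0832), for the macrophage gene Mrc1 without the A1 and A2 libraries (0.0330), for the glycolysis regulator Pfkfb3 without them (0.143) or with the term (0.0532), and for Pfkfb4 with voom (-0.00434) or the first principal component (-0.0254). Among acinar genes Cela1 turned with voom (0.466), without the pair of libraries (0.631) and with the first principal component (0.570), Cela2a with the acinar score (0.023), without the pair (0.351) and with the first principal component (1.231), and Cpa1 with voom (0.015) and the first principal component (0.902). Foxp3 turned with the term (0.013) and without the pair (0.016). Acta2 turned with voom (0.108), the acinar score (0.051), without the pair (0.120) and with the first principal component (0.137), and Vegfa with voom (-0.222), the acinar score (-0.096) and the first principal component (-0.282). With 1 library left out, Acta2 ranged from -0.361 to 0.124, Atp2a1 from -0.227 to 5.005, Cela1 from -2.22 to 1.36, Cela2a from -2.46 to 1.28, Cpa1 from -2.02 to 1.08, Dck from -0.227 to 0.061, Foxp3 from -0.327 to 0.078 and Vegfa from -0.227 to 0.354. The cause of these changes was not tested. The other genes recomputed kept their sign in every setting, Gzmb with 1.18 without the A1 and A2 libraries and 1.93 without GEM replicate 5.

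Depth limits the genes near or under 1 CPM, such as Klrg1, Cldn18 and Cd163l1, which rest on few reads.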

Other observations

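Checkpoint receptors did not share 1 pattern over the IGEL libraries. Havcr2, the receptor TIM-3 of exhausted T cells and of myeloid cells, measured 22.9, 15.9, 21.5, 14.8, 18.1 and 8.56 CPM in GEM replicates 1 to 6 and 48.7, 11.6, 23.7, 12.5, 16.1 and 38.2 CPM in IGEL replicates 1 to 6 (log2 fold change 0.57 ± 0.37, SE). IGEL replicates 1 and 6 were the highest, as for Ctla4 and Il2ra. Lag3, a receptor that binds class II molecules, measured 3.40, 2.12, 2.79, 5.35, 4.56 and 3.45 CPM in GEM and 1.53, 13.05, 6.37, 4.87, 8.26 and 3.01 CPM in IGEL (0.78 ± 0.43), where replicates 1 and 6 were the lowest. Pdcd1 measured 1.19 to 2.65 CPM in GEM and 1.45, 4.96, 3.98, 2.94, 4.45 and 1.59 CPM in IGEL (0.78 ± 0.33), in the order of Lag3. These genes were chosen after their values were seen.

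Gdf15, a stress cytokine of the p53 list, measured 5.93 to 9.29 CPM in 5 GEM libraries and 39.98 CPM in GEM replicate 4, against 3.74 to 10.05 CPM in IGEL (-1.02 ± 0.46). The predicted gene Gm47547 measured 0.834 to 3.21 CPM in GEM and 0.127 to 0.87 CPM in IGEL, with a DESeq2 log2 fold change of -1.90 ± 0.42 (SE, adjusted p = 0.0384). Its groups overlapped in 1 library, GEM replicate 1.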
